A study of Homo sapiens with 60 samples.

Results

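Bupleuri Radix is the dried root of Bupleurum, used in East Asian medicine and known for its triterpenoid saponins, the saikosaponins. The comparison here is between HT29 cells given an ethanol extract of this root at 310 µg/mL, called High, and HT29 cells given 12.4 µg/mL, called Low. It rests on 6 of the 60 libraries of the series that were analysed, 3 per dose, picked by the dose in their labels. HT29 is a human colorectal adenocarcinoma line with features of both absorptive and mucus-secreting cells. All cells were exposed for 24 h and all groups contain only HT29 cells. The series' design states that, for extracts whose IC20 lay below the usual top dose, that IC20 was used, with 5-fold and 25-fold dilutions of it. The 3 doses of this extract follow those steps, with 62 µg/mL, called Medium, between them in 3 further libraries. The labels of the 3 Vehicle libraries give 0.1% DMSO, whereas the series' design gives 2% DMSO. As a second extract, 6 libraries of Aconiti Lateralis Radix Preparata, processed aconite root, at 500 µg/mL (High) and 20 µg/mL (Low) have sample codes that begin with the same number, 13, as those of Bupleuri Radix, and the 18 libraries of both extracts, Medium doses included, are called a library set here. The labels do not define the codes, and the titles put Vehicle and every extract alike under BatchD. The labels do not say that replicates were separate cultures, so the p-values measure the spread between these libraries, which may be technical.

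Electrophilic plant compounds can be sensed by KEAP1, which otherwise holds the transcription factor NRF2 (NFE2L2) for degradation. Freed NRF2 binds antioxidant response elements with small MAF proteins and raises genes for glutathione, thioredoxin, iron and NADPH supply. A second route, the integrated stress response, raises translation of ATF4, which drives amino acid uptake, CHOP (DDIT3) and ATF3. Lysosome genes answer to TFEB and TFE3, and growth factor and stress kinases act through the FOS and JUN proteins of AP-1. Colonic epithelial cells also express the NADPH oxidase NOX1 and goblet cell genes under ATOH1.

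Values are in CPM, that is, counts scaled to the size of each library. In the 21 libraries fitted together, which held 20061083 to 36715085 counts each, a floor of 3 counts corresponded to 0.082 to 0.15 CPM. The line's epithelial markers were present, EPCAM at 508, 510 and 529 CPM in Low and 516, 501 and 531 CPM in High. Of 10 epithelial markers 3 rose and 3 fell from Low to High, while among all tested genes 10.9% rose and 9.82% fell. With all 60 libraries 2 of these markers rose and 1 fell, and with upper-quartile factors 3 rose and 4 fell. Of 14 markers of blood, stromal and other cells, 10 were below the filter on low counts, ALB was at 0 in all 12 libraries of Bupleuri Radix and Vehicle, and PTPRC and CD3E did not exceed 0.048 CPM. Low levels were found in all 12 libraries for COL1A1 (0.953 to 1.637 CPM), PECAM1 (1.267 to 1.989 CPM) and ACTA2 (0.499 to 1.336 CPM). CD14 lay between 2.05 and 4.4 CPM and was the lone such marker to pass the test, with a log2 change from Low to High of -0.53 (adjusted p = 0.015, or 0.079 without High replicate 2 and 0.097 without Low replicate 3). The codes of the Vehicle libraries begin differently from those of the extracts, and Vehicle replicate 1 stood apart from the other 2. The share of counts from mitochondrial ribosomal RNA was 1.1 to 1.14% in Low and 1.16 to 1.31% in High, and MT-RNR2 passed the test (log2 change 0.18, adjusted p = 0.021), though not with upper-quartile factors (adjusted p = 0.054) or all 60 libraries (0.73), nor without High replicate 1 (0.06) or 3 (0.13) or Low replicate 2 (0.075) or 3 (0.057). Its part in the other results was not tested. The labels do not say whether the codes mark separate handling. If they do, treatment and handling cannot be told apart for Vehicle, so its levels are given as a description. In bulk RNA, fewer cells of a kind and less RNA per cell cannot be told apart.

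From Low to High dose, 3217 of 15490 tested genes changed (edgeR's quasi-likelihood test, Benjamini-Hochberg adjusted p below 0.05), which is 20.8% of those tested. Of these, 1696 rose (10.9%) and 1521 fell (9.82%). At least 2-fold rises were seen for 81 genes and at least 2-fold falls for 125. The 3 High and the 3 Low libraries did not overlap for 5972 genes, 38.6% of those tested. The split between rises and falls depended on scaling: with upper-quartile factors in place of TMM factors, 1266 genes rose and 1932 fell, so 39.6% of the calls were rises against 52.7% in the main scaling. Without the 3 Vehicle libraries, 2099 genes rose and 1802 fell.

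Most of the change lay between Medium and High, more so for the rises than for the falls. From Low to Medium no gene passed the test (0.0% of those tested), and DESeq2 called 11. Of 15490 tested genes 660 had an unadjusted p below 0.05, a share smaller than 0.05 itself. From Medium to High, 2508 genes changed (16.2%), 1358 up and 1150 down, or 1031 up and 1560 down with upper-quartile factors. Among the 211 genes that rose at least 1.5-fold from Low to High, the median log2 change was 0.86 for the whole step, 0.08 from Low to Medium and 0.77 from Medium to High. For the 387 genes that fell at least 1.5-fold, the medians were -0.81, -0.16 and -0.66. The Medium change exceeded 50% of the whole log2 change, with the same sign, in 19 of the 211 and in 37 of the 387. These comparisons share libraries, so their values are set side by side and not counted as separate support.

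**Figure D1:**
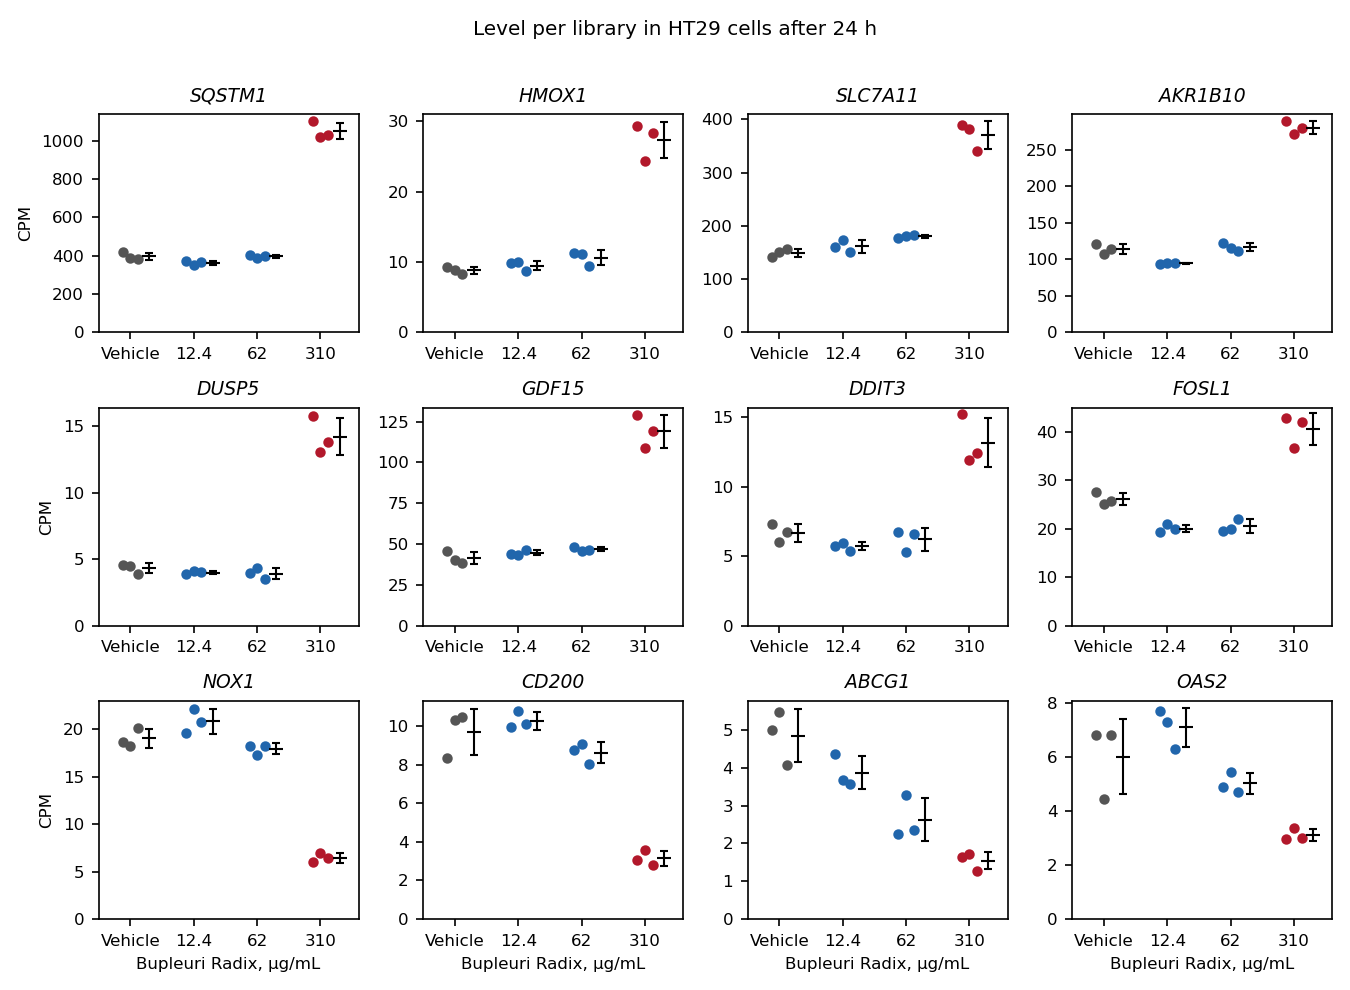
CPM per library (y axis, from 0) for 12 genes in Vehicle and at 12.4, 62 and 310 µg/mL of Bupleuri Radix (x axis). Points are libraries, and bars beside them are the mean and SD of 3 libraries. For SQSTM1, DUSP5 and NOX1 the Medium libraries lie close to Low and the High libraries lie apart, while ABCG1 and OAS2 are also lower at Medium (2.24 to 3.29 and 4.72 to 5.44 CPM) than at Low.

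Regulators of NRF2 rose with its targets. Of 8 tested regulators, 7 rose and 0 fell, with a median log2 change of 0.24 against -0.007 over all tested genes. SQSTM1 (p62; chr5:179806398-179838078, plus strand, GRCh38), an autophagy receptor that also binds KEAP1, was at 373, 352 and 366 CPM in Low, 406, 387 and 396 CPM in Medium and 1100, 1020 and 1030 CPM in High. The High libraries were all above every Low, Medium and Vehicle library, Vehicle being at 417, 390 and 385 CPM. The log2 change from Low to High was 1.53 ± 0.04 (SE), a 2.9-fold rise (adjusted p = 5.4e-17), the smallest p of all tested genes. The small MAF partners MAFG (log2 change 0.52, adjusted p = 4.2e-07) and MAFK (0.25, adjusted p = 0.0029) and the NRF2 inhibitor KEAP1 (0.23, adjusted p = 0.00074) also rose. NFE2L1, a relative of NRF2, was at 260, 255 and 246 CPM in Low and 246, 260 and 241 CPM in High and did not pass the test.

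Genes for cystine uptake and glutathione synthesis rose. SLC7A11, the cystine/glutamate exchanger, was at 161, 173 and 150 CPM in Low, 178, 180 and 183 CPM in Medium and 389, 382 and 341 CPM in High. Its log2 change from Low to High was 1.2 ± 0.06 (adjusted p = 5.6e-13), and the groups did not overlap. The 2 subunits of glutamate-cysteine ligase, the rate-limiting enzyme of glutathione synthesis, moved alike: GCLM from 68, 70.7 and 67.6 to 132, 125 and 133 CPM and GCLC from 84.8, 85.4 and 83.5 to 168, 154 and 155 CPM. Their log2 changes were 0.92 (adjusted p = 2.3e-12) and 0.91 (adjusted p = 2.8e-13). SLC3A2, the heavy chain that SLC7A11 pairs with, rose by 0.54 on the log2 scale (adjusted p = 8.5e-09). GGT1, which breaks glutathione down at the cell surface, fell from 7.77, 7.49 and 8.42 to 4.66, 4.95 and 5.29 CPM (log2 change -0.67, adjusted p = 4.3e-05). In all, 8 of 12 tested members rose and 1 fell, and the glutathione transferase GSTP1 was at 498, 469 and 511 CPM in Low and 488, 485 and 500 CPM in High.

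The thioredoxin and quinone defence genes gave 6 rises and 2 falls among 11 tested, the falls being TXNIP and catalase, CAT (-0.12). OSGIN1, an oxidative stress-induced growth inhibitor, was at 10.9, 11.1 and 11.8 CPM in Low, 14.2, 13.2 and 12.4 CPM in Medium and 30.3, 28.6 and 29.3 CPM in High (log2 change 1.38 ± 0.07, adjusted p = 1.4e-12). TXNRD1, thioredoxin reductase, went from 363, 364 and 344 to 640, 638 and 609 CPM (0.82 ± 0.04, adjusted p = 1.7e-12). SRXN1, sulfiredoxin, rose by 0.65 and NQO1, a quinone reductase, by 0.49 on the log2 scale (adjusted p = 1.7e-11 and 1.4e-09). TXNIP, the inhibitor of thioredoxin, fell from 61.1, 57.7 and 60.2 to 37.5, 39.6 and 40.5 CPM (log2 change -0.61, adjusted p = 5.4e-09). PRDX6, a peroxiredoxin, did not pass the test, at 201, 201 and 195 CPM in Low and 214, 209 and 207 CPM in High.

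Iron handling and NADPH supply followed. HMOX1, haem oxygenase, was at 9.82, 9.97 and 8.71 CPM in Low, 11.3, 11.1 and 9.4 CPM in Medium and 29.3, 24.4 and 28.3 CPM in High (log2 change 1.53 ± 0.09, adjusted p = 1.6e-11). The ferritin chains, which store iron, rose from 2800, 2720 and 3080 to 5690, 5030 and 5490 CPM (FTH1) and from 2110, 1900 and 2060 to 3410, 3010 and 3460 CPM (FTL). Their log2 changes were 0.91 (adjusted p = 2.2e-08) and 0.7 (adjusted p = 6.8e-08). FTH1 in Vehicle, at 5160, 4450 and 4300 CPM, lay above Low and overlapped High. Ferritin has near-identical pseudogenes, 6 of 8 tested ones rose, and reads may be shared between them. SLC40A1, ferroportin, the iron exporter, fell from 158, 157 and 154 to 110, 108 and 103 CPM (-0.55, adjusted p = 9.4e-10). Of 12 tested haem and iron genes 7 rose and 1 fell, and NCOA4, the receptor for ferritin turnover, was at 172, 173 and 170 CPM in Low and 175, 179 and 180 CPM in High, which did not overlap but did not pass the test. Of 8 NADPH supply genes 5 rose and 1 fell. The malic enzyme ME1 rose by 0.43 (adjusted p = 3.6e-09) and transketolase TKT by 0.36 (adjusted p = 4.8e-07) on the log2 scale, while the isocitrate dehydrogenase IDH1 fell by 0.24 (adjusted p = 9.6e-05).

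Promoters of 3 of these rising genes are shown because they hold letters of the antioxidant response element, TGACNNNGC on either strand, here in capitals. The sequences are RefSeq's, build GRCh38.p14, written 5′ to 3′ on the gene's strand. GCLM lies on the minus strand, chr1:93909431-93909580, with the element 34 bases before the start site. TXNRD1 lies on the plus strand, chr12:104215629-104215783, with a copy 99 bases before the start site and another that spans it. ME1 lies on the minus strand, chr6:83431052-83431201, with the element 137 bases before the start site, where the letters also spell the AP-1 site TGANTCA.
GCLM: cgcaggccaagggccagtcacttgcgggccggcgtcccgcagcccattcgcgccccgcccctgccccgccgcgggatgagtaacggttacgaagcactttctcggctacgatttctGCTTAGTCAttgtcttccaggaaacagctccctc
TXNRD1: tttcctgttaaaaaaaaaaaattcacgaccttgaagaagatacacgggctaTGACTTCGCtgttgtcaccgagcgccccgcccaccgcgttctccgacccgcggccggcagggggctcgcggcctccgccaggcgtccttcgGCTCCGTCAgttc
ME1: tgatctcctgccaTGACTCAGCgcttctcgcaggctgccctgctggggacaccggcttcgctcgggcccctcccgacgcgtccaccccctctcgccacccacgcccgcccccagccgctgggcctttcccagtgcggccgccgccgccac

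The promoter table covered 10825 of 14006 tested genes with a symbol, as windows of 300 bases, 250 before and 50 after the start site. The element was in 15.3% of all tested genes. Among the lists of NRF2 regulators and targets in the table it was in 4 of 8 glutathione genes (50%), 2 of 7 NADPH supply genes (28.6%), 2 of 10 haem and iron genes (20%), 1 of 7 regulators (14.3%), 1 of 8 thioredoxin and quinone genes (12.5%) and 1 of 10 aldo-keto reductases and carbonyl genes (10%). Of interferon-stimulated genes it was in 7 of 19 (36.8%). Among genes that rose at least 1.5-fold the element was in 24 of 142 (16.9%), near the share of all tested genes. It was in 20.2% of 1214 that rose less, 10.7% of 261 that fell at least 1.5-fold and 14.8% of 8332 that did not pass the test. These shares carry no test. A match is a description of letters and no sign of binding, and enhancers further away were not searched.

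Aldo-keto reductases, which reduce reactive carbonyls and steroids and are among the most NRF2-responsive human genes, held several of the largest rises. AKR1C2 was at 8.79, 7.83 and 9.12 CPM in Low, 9.97, 8.93 and 9.99 CPM in Medium and 31, 29.1 and 30.4 CPM in High (log2 change 1.81 ± 0.07, 3.5-fold, adjusted p = 1.9e-14). AKR1B10 was at 93.4, 94.5 and 95.5 CPM in Low, 122, 116 and 111 CPM in Medium and 289, 271 and 280 CPM in High (1.57 ± 0.05, adjusted p = 9.5e-16). Its Medium libraries did not overlap Low, and its adjusted p of 0.071 was the smallest of the Low-to-Medium comparison. AKR1C1 rose by 1.45 (adjusted p = 5.1e-13) and AKR1C3 by 1.2 (adjusted p = 1.1e-08) on the log2 scale. The AKR1C genes are near-identical copies, so the division of reads among them is uncertain. In all, 9 of 11 tested members rose, with a median log2 change of 0.48, and 1 fell: ALDH1A1, a retinal dehydrogenase, from 858, 854 and 826 to 698, 700 and 734 CPM (-0.25, adjusted p = 1.7e-05). AKR1A1 was at 65.7, 69.8 and 68.3 CPM in Low and 62.9, 67.5 and 68.8 CPM in High.

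Genes for the aryl hydrocarbon receptor, the sensor of planar aromatic compounds, and for its partner and targets gave 6 rises and 1 fall among 9 tested. CYP1A1, its classic target, chosen after its values were seen because its level was too low for the rule on named genes, was at 0.247, 0.382 and 0.112 CPM in Low, 0.486, 0.549 and 0.528 CPM in Medium and 2.08, 2.46 and 2.37 CPM in High. The High libraries lay apart from Low, with a fitted log2 change of 3.25 ± 0.34 (adjusted p = 3e-07). The weakest Low library held 3 counts, so the size of this fold is imprecise. ALDH3A1 rose from 18.3, 19.9 and 19.6 to 41, 40.9 and 39.9 CPM (1.08 ± 0.07, adjusted p = 4.8e-11). TIPARP, a feedback inhibitor of the receptor, rose by 0.47 (adjusted p = 1.4e-06) and CYP1B1 by 0.33 (adjusted p = 2.7e-06), while AHR itself, at 131, 138 and 133 CPM in Low and 139, 144 and 134 CPM in High, did not pass the test. The fall was that of ARNT, the receptor's partner (-0.18). Letters of the receptor's response element, TTGCGTG on either strand, were in 0 of 7 promoters searched for this list. They were in 0 of 142 genes that rose at least 1.5-fold, 1.98% of 1214 that rose less and 1.6% of all tested genes. These shares carry no test. Among 13 conjugation and efflux genes 8 rose and 3 fell, the falls being UGT2B7 (-1.38), SULT1A1 (-0.31) and ABCC4 (-0.28). ABCC2, an apical export pump for conjugates, also chosen after its values were seen, was at 0.945, 0.668 and 0.968 CPM in Low and 2.94, 2.86 and 2.95 CPM in High (1.74 ± 0.23, adjusted p = 4.8e-06). The glucuronosyltransferases UGT1A6 (0.64, adjusted p = 3.6e-08) and UGT1A1 (0.58, adjusted p = 3.2e-07) rose, and they share exons, so their reads cannot be fully separated.

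Genes of the ATF4 and CHOP arm rose: 15 of 19 tested and 0 down, with a median log2 change of 0.43. DDIT3 (CHOP), a stress transcription factor tied to cell death, was at 5.75, 5.97 and 5.4 CPM in Low, 6.71, 5.29 and 6.62 CPM in Medium and 15.2, 11.9 and 12.4 CPM in High (1.21 ± 0.11, adjusted p = 5.1e-08). ATF3, a stress-induced repressor, rose from 2.55, 3.29 and 2.46 to 8.14, 6.71 and 6.8 CPM (1.39 ± 0.15, adjusted p = 3.7e-07). CHAC1, which cleaves glutathione, rose from 3.57, 2.86 and 3.2 to 8.23, 8.51 and 7.97 CPM (1.35 ± 0.12, adjusted p = 1.2e-08). For all 3 genes the Medium libraries lay far below the High ones. GDF15, a secreted stress hormone, was at 44, 43.5 and 46.4 CPM in Low, 48, 45.9 and 46.6 CPM in Medium and 129, 109 and 119 CPM in High (1.41 ± 0.07, adjusted p = 3.6e-12). PPP1R15A, which ends the response by restoring translation, rose by 0.8 (adjusted p = 1.2e-09). PSPH, of serine synthesis, was at 45.1, 46.7 and 47.9 CPM in Low and 44.8, 47.2 and 49.6 CPM in High.

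Amino acid supply moved with them. Of 12 tested transporters 9 rose and 1 fell, with a median of 0.41. The rises include SLC7A11 and SLC3A2, which were also counted with the glutathione genes. SLC38A4, a sodium-coupled neutral amino acid transporter, rose from 3.12, 3.1 and 3.17 to 8.81, 8.8 and 7.42 CPM (1.41 ± 0.17, adjusted p = 1.5e-06), and SLC38A2 and SLC38A1 by 0.46 (adjusted p = 3.6e-08) and 0.44 (adjusted p = 1.6e-06). The member that fell was SLC6A14, a broad amino acid transporter (-1.12). SLC38A11, which was not on this list, fell from 19.1, 18.4 and 16.3 to 7.1, 7.77 and 8.12 CPM (-1.22 ± 0.07, adjusted p = 2.8e-11). Of 17 aminoacyl-tRNA synthetases, which charge tRNAs with amino acids, 12 rose by small amounts and 1 fell, QARS1 (-0.14), with a median of 0.13. WARS1 (0.27, adjusted p = 5.2e-05) and GARS1 (0.26, adjusted p = 6.4e-05) rose most among those named. In the fit of all 60 libraries 5 synthetases rose and 0 fell.

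Letters of the amino acid response element, TGATGNAA on either strand, were in 1.74% of all tested genes. By list they were in 6 of 14 synthetase promoters (42.9%), 3 of 11 transporters (27.3%) and 3 of 16 ATF4 and CHOP genes (18.8%). They were in 6 of 142 genes that rose at least 1.5-fold (4.23%) and 8 of 261 that fell as much (3.07%). The shares were 2.55% of 1214 that rose less and 1.6% of 8332 that did not pass. These shares carry no test. Promoter stretches of CHAC1 (plus strand, chr15:40953221-40953320, match 209 bases before the start site) and ATF3 (plus strand, chr1:212565157-212565256, match 191 bases before it) are shown with the match in capitals, since both genes rose by over 2-fold.
CHAC1: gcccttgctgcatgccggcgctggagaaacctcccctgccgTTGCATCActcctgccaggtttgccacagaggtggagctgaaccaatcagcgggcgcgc
ATF3: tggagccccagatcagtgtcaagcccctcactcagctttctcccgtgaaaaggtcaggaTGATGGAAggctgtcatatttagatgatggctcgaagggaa

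Protein folding genes rose by smaller amounts. Of 22 endoplasmic reticulum chaperone and unfolded protein response genes, 14 rose and 0 fell (median 0.17). HERPUD1, of endoplasmic reticulum degradation, went from 40.3, 39.1 and 42.9 to 60.3, 55 and 57 CPM (0.49 ± 0.05, adjusted p = 4.4e-08), and HSPA5 (BiP), the main luminal chaperone, from 407, 415 and 428 to 562, 534 and 541 CPM (0.39 ± 0.04, adjusted p = 6.1e-08). PDIA3, a disulfide isomerase, was at 693, 672 and 666 CPM in Low and 716, 689 and 708 CPM in High and did not pass the test. Of 17 heat shock genes 15 rose and 0 fell (median 0.2). The cytosolic chaperone HSPH1 rose from 459, 450 and 450 to 594, 582 and 589 CPM (0.38 ± 0.03, adjusted p = 2.2e-08), and HSPA1B and HSPA1A, near-identical copies whose reads may be exchanged, by 0.35 (adjusted p = 5.8e-06) and 0.3 (adjusted p = 4.4e-06). Of 31 proteasome subunits 20 rose and 0 fell, each by a small amount (median 0.16). PSMD14, a deubiquitinase of the lid, went from 94.3, 96.9 and 93.7 to 111, 115 and 113 CPM (0.25 ± 0.03, adjusted p = 1.1e-05). The counts of rises are smaller with all 60 libraries, at 6 for the proteasome and 9 for heat shock, and 28 proteasome subunits rose without the Vehicle libraries.

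The lysosome was a further group with rises and no falls. Of 7 tested genes for TFEB and its control, 6 rose (median 0.4). RRAGC, a RAG GTPase that docks mTORC1 and TFEB at the lysosome, rose from 36.8, 35.2 and 33.9 to 59.4, 58.5 and 55.2 CPM (0.71 ± 0.05, adjusted p = 1.1e-09). FLCN, folliculin, its activator, rose by 0.61 (adjusted p = 1.1e-08) and its partner FNIP1 by 0.6 (adjusted p = 6.2e-08). TFE3 rose by 0.32 (adjusted p = 1.2e-06), whereas TFEB, at 14, 14.8 and 12.8 CPM in Low and 12.5, 12.4 and 13.8 CPM in High, did not pass the test. Of 27 lysosomal hydrolases and membrane proteins 13 rose and 0 fell. NEU1, sialidase, went from 53.9, 51.8 and 54.7 to 88.9, 86.4 and 86.8 CPM (0.71 ± 0.04, adjusted p = 6.8e-12), and the cholesterol exporter NPC1 and the protease CTSD rose by 0.52 (adjusted p = 2.6e-08) and 0.45 (adjusted p = 4.3e-08). Of 15 subunits of the proton pump, the V-ATPase, 12 rose (median 0.21), ATP6V1B2 by 0.44 (adjusted p = 8.4e-06), and 6 rose with all 60 libraries. With upper-quartile factors 10 rose and 1 fell. Of 18 autophagy genes 4 rose and 1 fell, the receptor NBR1 (-0.12, adjusted p = 0.033, or 0.15 without Low replicate 2). The median of this list was 0.06, and among all tested genes 10.9% rose and 9.82% fell. Apart from SQSTM1, the rises were GABARAPL1 (0.44, adjusted p = 0.00098), UVRAG (0.33, adjusted p = 0.00012) and MAP1LC3B (0.31, adjusted p = 2.1e-05).

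The palindrome TCACGTGA, a form of the CLEAR element that TFEB and TFE3 bind, was in 1.9% of all tested genes. It was in 3.54% of 1214 genes that rose under 1.5-fold and 1.82% of 8332 that did not pass the test. It was in 4 of 142 that rose more (2.82%) and 1 of 261 that fell at least 1.5-fold (0.383%). No share here was tested, and a match is no sign of binding. By list, the palindrome was in 2 of 17 lysosomal hydrolases and membrane proteins, 2 of 10 V-ATPase subunits and 0 of 17 autophagy genes. It is shown in capitals for the lysosomal calcium channel MCOLN1, which rose by 0.4 (adjusted p = 0.0064) and holds 2 copies, and for the protease CTSA, which rose by 0.36 (adjusted p = 4.2e-07). MCOLN1 is at chr19:7522474-7522623 and CTSA at chr20:45891185-45891334, both on the plus strand, with a match 42 bases before the start site of MCOLN1 and 26 bases before that of CTSA.
MCOLN1: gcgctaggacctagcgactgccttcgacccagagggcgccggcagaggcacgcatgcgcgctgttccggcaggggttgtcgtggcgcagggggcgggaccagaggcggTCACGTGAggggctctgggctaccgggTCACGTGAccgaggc
CTSA: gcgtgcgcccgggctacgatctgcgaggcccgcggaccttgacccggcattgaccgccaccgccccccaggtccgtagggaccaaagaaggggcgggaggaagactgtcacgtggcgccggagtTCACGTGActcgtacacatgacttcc

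AP-1 subunits and growth signalling genes rose in part. Of 12 AP-1 and immediate early genes 9 rose and 0 fell (median 0.26). FOSL1 (FRA1) was at 19.3, 20.9 and 19.9 CPM in Low, 19.6, 20 and 22.1 CPM in Medium and 42.8, 36.7 and 41.9 CPM in High (1.02 ± 0.07, adjusted p = 9.1e-10). JUN rose from 51.9, 52.5 and 52.5 to 71.7, 73 and 72.6 CPM (0.47 ± 0.04, adjusted p = 1.9e-08), and JUNB, at 45.1, 43.8 and 48.6 CPM in Low and 51.1, 45.9 and 51.2 CPM in High, did not pass the test. DUSP5, a nuclear phosphatase that switches ERK off, was at 3.86, 4.1 and 4.02 CPM in Low, 3.94, 4.34 and 3.48 CPM in Medium and 15.8, 13.1 and 13.8 CPM in High (1.83 ± 0.1, 3.56-fold, adjusted p = 9.5e-12). Of 16 ERK feedback genes, however, 5 rose and 2 fell with a median of 0.04, and the Sprouty inhibitors SPRY1 (-0.38, adjusted p = 0.00017) and SPRY2 (-0.19) fell. Over all tested genes 10.9% rose and 9.82% fell. Of 9 EGF receptor family genes and ligands 4 rose and 2 fell: the ligands HBEGF (0.68, adjusted p = 1.6e-05), EREG (0.38, adjusted p = 1.5e-06) and TGFA (0.25, adjusted p = 7e-05) and the feedback inhibitor ERRFI1 (0.44, adjusted p = 5.4e-07) rose, and the receptors ERBB3 (-0.22, adjusted p = 5.7e-05) and ERBB2 (-0.2) fell. EGFR was at 167, 171 and 159 CPM in Low and 195, 195 and 174 CPM in High, which did not overlap but missed the threshold (adjusted p = 0.11).

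The AP-1 site TGANTCA was in 27 of 142 promoters of genes that rose at least 1.5-fold (19%). It was in 6.51% of 1214 that rose less, 4.6% of 261 that fell at least 1.5-fold, 4.2% of 8332 that did not pass the test and 4.76% of all tested genes. Its letters can overlap the antioxidant response element. Counting copies outside any TGACNNNGC match, the shares were 17.6% for the genes that rose at least 1.5-fold and 4.3% for all tested genes. These shares compare groups formed from the same libraries and carry no test. Promoter stretches with the site in capitals are shown for OSGIN1 (plus strand, chr16:83953090-83953239, 97 bases before the start site), the membrane mucin MUC17 (plus strand, chr7:101019931-101020080, 93 bases before it) and DDIT3 (minus strand, chr12:57520665-57520764, 241 bases before it), as members of 3 different groups that rose.
OSGIN1: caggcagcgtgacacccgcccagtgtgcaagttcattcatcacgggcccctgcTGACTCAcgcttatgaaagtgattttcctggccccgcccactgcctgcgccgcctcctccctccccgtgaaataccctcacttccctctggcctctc
MUC17: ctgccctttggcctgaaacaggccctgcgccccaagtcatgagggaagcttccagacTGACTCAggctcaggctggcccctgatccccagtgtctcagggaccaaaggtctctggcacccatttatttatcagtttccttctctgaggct
DDIT3: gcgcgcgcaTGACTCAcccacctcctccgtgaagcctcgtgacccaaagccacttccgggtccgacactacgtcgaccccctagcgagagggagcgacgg

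Inflammatory and antiviral genes went in opposite directions. Of 18 NF-kappaB targets and chemokines 10 rose and 0 fell (median 0.23). ICAM1, a leukocyte adhesion molecule, rose from 4.89, 4.72 and 5.07 to 8.18, 8.43 and 8.67 CPM (0.78 ± 0.1, adjusted p = 2.9e-06), TNFAIP3 (A20), an inhibitor of NF-kappaB, by 0.8 (adjusted p = 0.00094) and the neutrophil chemokine CXCL8 by 0.64 (adjusted p = 8.2e-05). CSF1 and CCL20, named after their values were seen, were below 1 CPM in Low and rose to 1.94, 1.76 and 1.63 CPM (1.63, adjusted p = 0.00022) and to 1.04, 0.941 and 0.777 CPM (1.56, adjusted p = 0.0044). The High libraries of CCL20 would by themselves meet the filter on low counts, and DESeq2 gave CCL20 no adjusted p. LCN2 was at 89.7, 84.4 and 85.3 CPM in Low and 85.2, 77 and 87.5 CPM in High. Of 25 interferon-stimulated genes none rose and 18 fell, with a median log2 change of -0.33. OAS2, an antiviral oligoadenylate synthetase, was at 7.72, 7.3 and 6.29 CPM in Low, 4.91, 5.44 and 4.72 CPM in Medium and 2.98, 3.36 and 2.99 CPM in High (-1.19 ± 0.16, adjusted p = 9.6e-06). Its 3 doses did not overlap, although Medium against Low did not pass the test. IRF9, a subunit of the factor that drives these genes, fell from 17.6, 15.3 and 14.4 to 10.5, 8.55 and 8.51 CPM (-0.78 ± 0.13, adjusted p = 6.8e-05), and IFIT1 and MX1 fell by 0.79 (adjusted p = 0.00067) and 0.7 (adjusted p = 0.00015). IRF1 was at 32.1, 30.6 and 32.2 CPM in Low and 34.4, 35.8 and 33.2 CPM in High and did not pass the test.

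**Figure D2:**
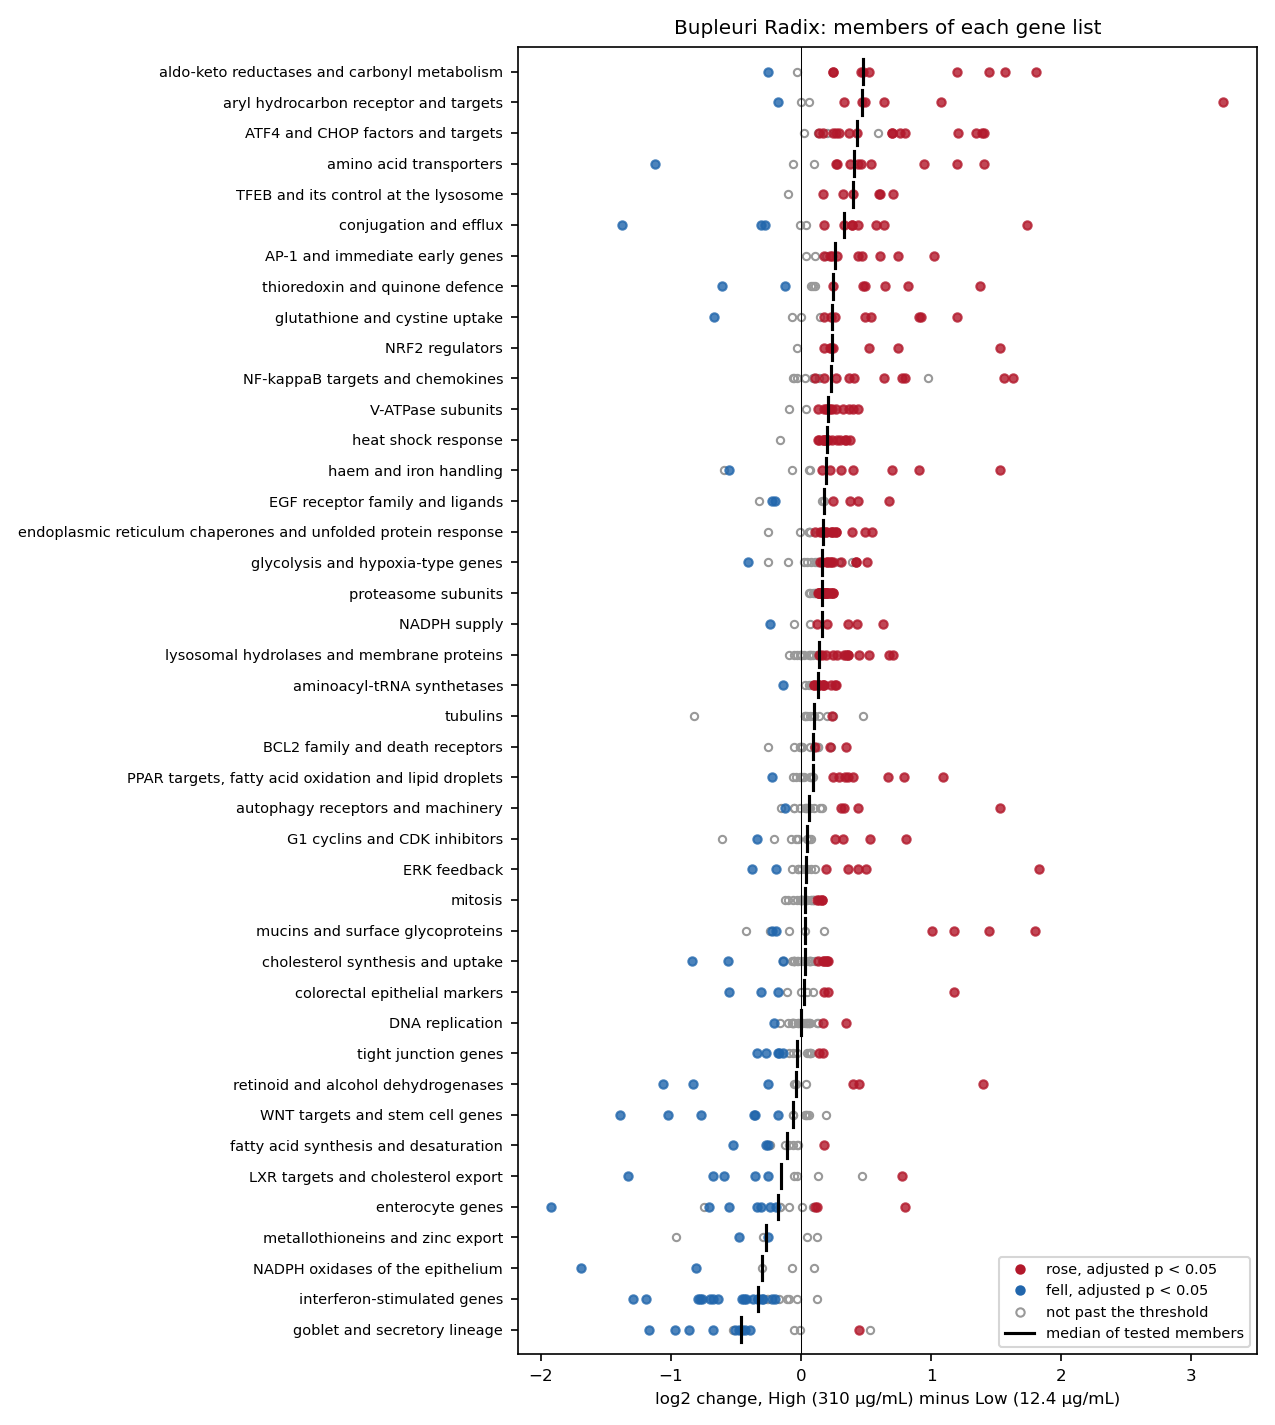
Log2 change from Low to High (x axis) of the tested members of 42 gene lists (y axis), each point a gene. Filled points passed the test, open points did not, and black bars are medians. The lists run from a median of 0.48 for aldo-keto reductases down to -0.46 for goblet genes, with CYP1A1 at 3.25 the rightmost point.

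Epithelial lineage lists differed in their counts. Of 14 goblet and secretory genes 9 fell and 1 rose, KLF4 (0.45), with a median of -0.46. ATOH1, the master factor of the secretory lineage, was at 4.64, 4.01 and 4.69 CPM in Low, 4.77, 5.29 and 4.61 CPM in Medium and 2.26, 2.21 and 2.37 CPM in High (-0.97 ± 0.12, adjusted p = 1.6e-06). REG4, a secreted lectin, fell from 22.2, 22.7 and 22.2 to 12.2, 12.2 and 12.5 CPM (-0.86 ± 0.07, adjusted p = 1e-08), TFF3 by 0.68 (adjusted p = 0.00074) and the gel-forming mucin MUC2 by 0.48 (adjusted p = 0.0074). Mucins and surface glycoproteins were mixed: of 11 tested 4 rose and 2 fell, MUC20 (-0.22, adjusted p = 0.0012) and MUC13 (-0.19, adjusted p = 0.00085). With all 60 libraries 4 rose and 0 fell, and MUC2, MUC20 and MUC13 no longer passed. Over all tested genes 10.9% rose and 9.82% fell in the main fit. MUC17 was at 6.16, 6.68 and 6.33 CPM in Low, 7.2, 7.09 and 5.31 CPM in Medium and 19.5, 17.4 and 15.7 CPM in High (1.45 ± 0.12, adjusted p = 6.4e-09). CEACAM6 rose from 31.3, 30.6 and 30.4 to 65.2, 58.9 and 62 CPM (1.01 ± 0.06, adjusted p = 8e-12) and CEACAM5 by 1.18 (adjusted p = 9.1e-09), though CEACAM genes, CEACAM7 (1.8, adjusted p = 0.00029) included, are similar enough to share reads. MUC5AC, another gel-forming mucin, did not pass the test, at 126, 128 and 114 CPM in Low and 109, 111 and 89.4 CPM in High.

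NOX1 (chrX:100843324-100874345, minus strand, GRCh38), the superoxide-forming oxidase of colonic epithelium, was at 19.6, 22.2 and 20.8 CPM in Low, 18.3, 17.3 and 18.3 CPM in Medium and 5.97, 6.96 and 6.45 CPM in High (-1.69 ± 0.07, a level 0.311 times Low, adjusted p = 2.8e-13). NOXO1, its organiser subunit, fell from 15.5, 13.6 and 15.2 to 8.36, 8.39 and 8.59 CPM (-0.81 ± 0.12, adjusted p = 2e-05). The other 3 tested genes of this list did not pass, among them RAC1, at 500, 491 and 505 CPM in Low and 528, 510 and 568 CPM in High. Of 16 enterocyte genes 7 fell and 3 rose, or 8 and 1 with upper-quartile factors. SLC5A9, a sodium-coupled sugar transporter and the largest fall by the rule on named genes, went from 2.34, 2 and 1.97 to 0.452, 0.491 and 0.7 CPM (-1.92 ± 0.2, adjusted p = 2.7e-07). VIL1, villin of the brush border, fell from 185, 182 and 186 to 123, 127 and 128 CPM (-0.55 ± 0.04, adjusted p = 1.3e-10), while the keratin KRT20 rose from 249, 247 and 245 to 429, 410 and 454 CPM (0.8 ± 0.04, adjusted p = 1.4e-12). Of 13 WNT target and stem cell genes 6 fell and 0 rose. ASCL2, a stem cell factor, fell by 1.02 (adjusted p = 0.00052) and EPHB3, a crypt receptor, by 0.77 (adjusted p = 6.1e-08), while RNF43 was at 331, 326 and 318 CPM in Low and 346, 342 and 308 CPM in High. With all 60 libraries 3 WNT targets fell. Tight junction genes had 5 falls and 2 rises among 15, led by CLDN1 (-0.34, adjusted p = 1.6e-06). Their median was -0.03, and among all tested genes 9.82% fell and 10.9% rose.

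Sterol and lipid genes moved in both directions. Of 10 genes listed as cholesterol export genes or targets of LXR, the oxysterol receptor, 5 fell and 1 rose. ABCG1, a cholesterol exporter, was at 4.36, 3.67 and 3.58 CPM in Low, 2.24, 3.29 and 2.36 CPM in Medium and 1.63, 1.72 and 1.28 CPM in High (-1.33 ± 0.17, adjusted p = 3.9e-06). The exporter ABCA1 fell by 0.68 (adjusted p = 5.8e-05) and MYLIP, which degrades the LDL receptor, by 0.59 (adjusted p = 4.2e-07). NR0B2 (SHP), a nuclear receptor that represses others, named after its values were seen as the 1 that rose, went from 4.77, 4.3 and 5.29 to 8.77, 6.92 and 9.05 CPM (0.78 ± 0.14, adjusted p = 0.00037). Among 26 cholesterol synthesis and uptake genes 6 rose and 3 fell, with a median of 0.03. Over all tested genes 10.9% rose and 9.82% fell. SQLE, the squalene epoxidase, rose by 0.21 (adjusted p = 0.0002). With all 60 libraries 2 of the 26 rose and 2 fell. Letters of a sterol response element, TCACNCCAC on either strand, were in 1 of 20 cholesterol synthesis and uptake promoters (5%). They were in 0 of 142 genes that rose at least 1.5-fold and 1.08% of all tested genes. These shares carry no test. Of 17 PPAR targets and lipid droplet genes 8 rose and 1 fell, CPT2 (-0.22). PLIN2, the coat protein of lipid droplets, rose from 8.75, 8.45 and 8.38 to 19, 18.4 and 17.1 CPM (1.09 ± 0.08, adjusted p = 2.4e-09), the fatty acid binding protein FABP1 by 0.79 (adjusted p = 0.00042), the pyruvate dehydrogenase kinase PDK4 by 0.67 (adjusted p = 6.3e-06) and CPT1A, which admits fatty acids to mitochondria, by 0.4 (adjusted p = 2.3e-07). Of 10 fatty acid synthesis genes 3 fell, among them the desaturase SCD (-0.27, adjusted p = 0.00022), and 1 rose, the elongase ELOVL1 (0.18, adjusted p = 0.00091).

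Cell cycle genes were described by 3 lists. Of 26 DNA replication genes 2 rose and 1 fell, of 25 mitosis genes 4 rose and 0 fell, and of 13 G1 cyclins and CDK inhibitors 4 rose and 1 fell, beside 10.9% rising and 9.82% falling among all tested genes. For mitosis genes the rises numbered 6 by DESeq2 and with 59 libraries and 0 with all 60. MKI67 was at 705, 701 and 643 CPM in Low and 721, 734 and 647 CPM in High and MCM7 at 388, 393 and 398 CPM in Low and 389, 389 and 398 CPM in High, both with overlapping groups. CDKN1A (p21), a CDK inhibitor, rose from 14.5, 13.4 and 14.1 to 25.8, 23.1 and 25 CPM (0.81 ± 0.06, adjusted p = 3.6e-09) and CDKN2B (p15) by 0.53 (adjusted p = 1.5e-05). CCND1, cyclin D1, at 137, 143 and 141 CPM in Low and 136, 144 and 133 CPM in High, did not pass the test. Of 14 BCL2 family and death receptor genes 3 rose and 0 fell, each by at most 0.35. Of 23 glycolysis and hypoxia-type genes 11 rose and 1 fell (7 and 1 with all 60 libraries), with rises of the phosphofructokinase PFKP (0.51, adjusted p = 1.4e-09), the glucose carrier SLC2A1 (0.42, adjusted p = 6.6e-09) and VEGFA (0.42, adjusted p = 3.6e-06) and a fall of carbonic anhydrase CA9 (-0.41, adjusted p = 3.3e-05).

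Some of the 12 largest rises were of genes outside these lists. IGFL2-AS1, a noncoding RNA, was at 9.08, 8.07 and 8.34 CPM in Low and 34.4, 30.1 and 32.6 CPM in High, the largest rise by the rule (1.93 ± 0.09, 3.8-fold, adjusted p = 5.1e-13). The library kit keeps strand, but no source used here says whether the counting used it, so its reads and those of genes it overlaps cannot be told apart. AHNAK2, a large scaffold protein, rose from 3.94, 3.63 and 4.28 to 14.1, 14.6 and 12.2 CPM (1.78 ± 0.1, adjusted p = 1.9e-11). The noncoding RNA UCA1 rose from 22.9, 22.4 and 22.3 to 72.6, 60.8 and 63.1 CPM (1.54 ± 0.07, adjusted p = 2.8e-13). Among the falls, CD200, an immune checkpoint ligand, went from 9.94, 10.8 and 10.1 to 3.07, 3.56 and 2.8 CPM (-1.71 ± 0.1, adjusted p = 4.3e-11), with Medium at 8.76, 9.08 and 8.02 CPM. The urea transporter SLC14A1 fell by 1.52 (adjusted p = 1.2e-10), SPEG by 1.49 (adjusted p = 7.7e-07), the ubiquitin ligase NEURL1 by 1.44 (adjusted p = 6.7e-08) and the junction protein CGNL1 by 1.41 (adjusted p = 1.5e-07). For NEURL1 and CGNL1 the Medium libraries, at 2.99 to 3.79 and 2.75 to 3.13 CPM, lay between Low and High without overlap.

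**Figure D3:**
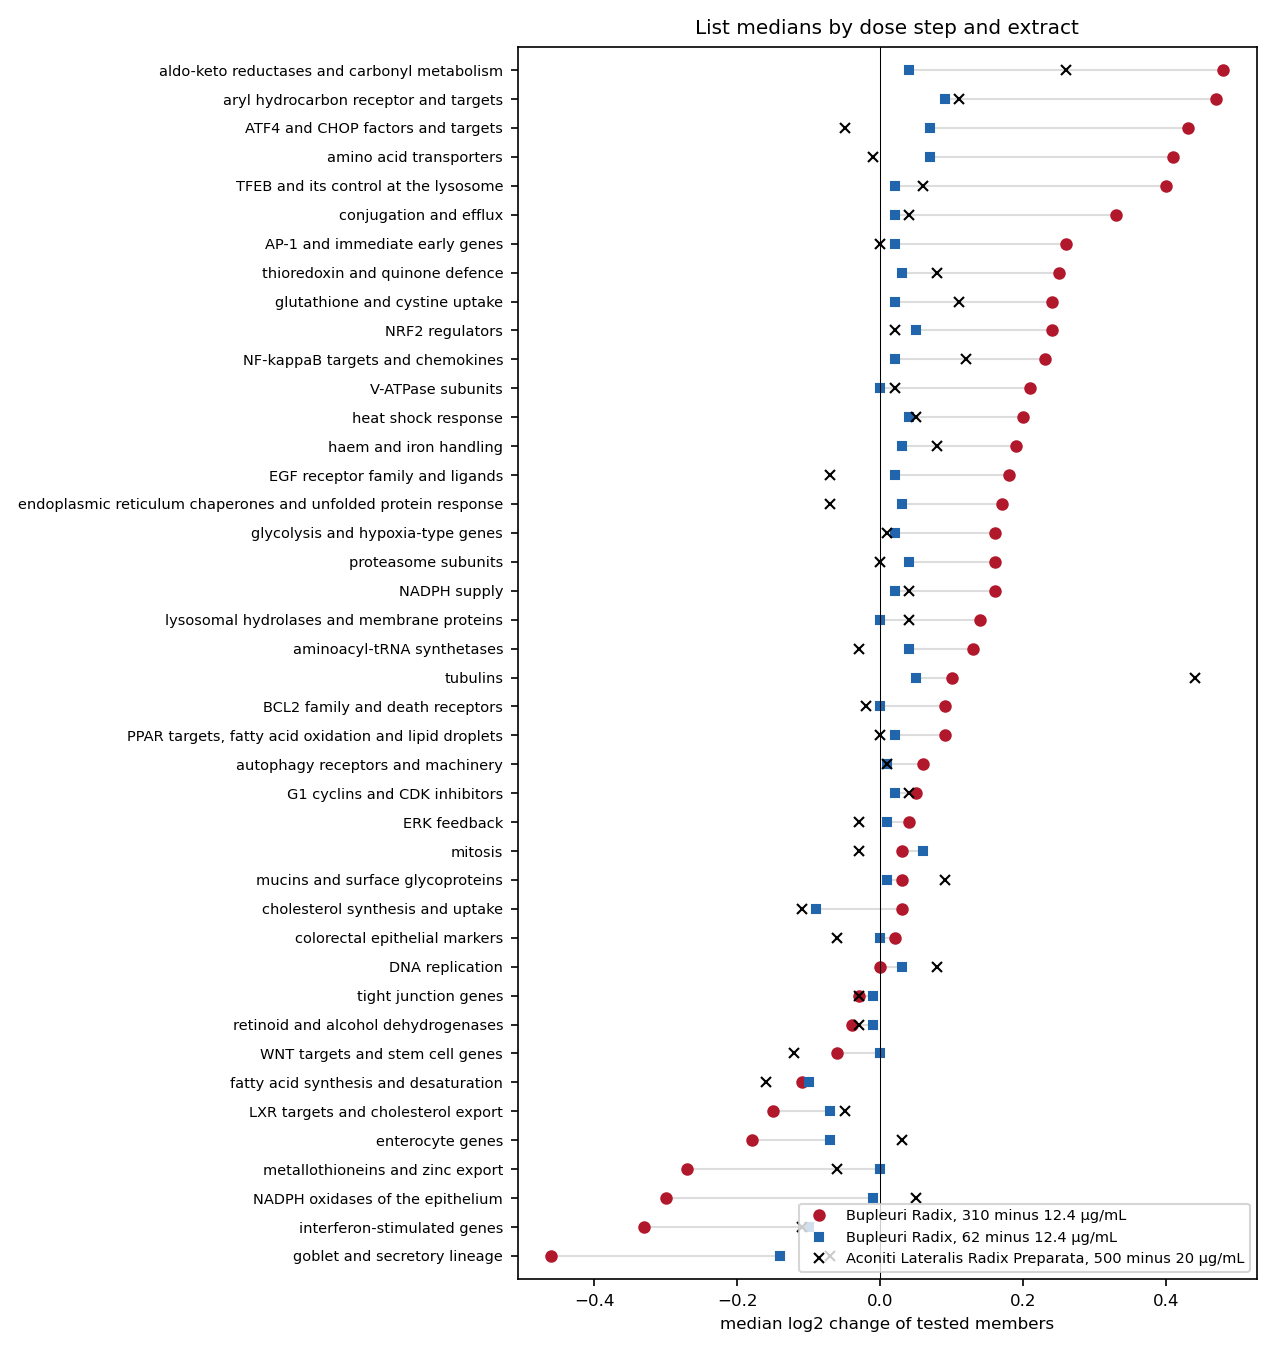
Median log2 change of the tested members of 42 gene lists (x axis) for Bupleuri Radix from 12.4 to 310 µg/mL (circles) and from 12.4 to 62 µg/mL (squares), and for Aconiti Lateralis Radix Preparata from 20 to 500 µg/mL (crosses). Squares lie between -0.14 and 0.09, and the tubulin list is the one with a high aconite median (0.44) beside a low Bupleuri median (0.1).

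The aconite extract of the same library set served to ask which changes differ between extracts. From its Low to its High dose 759 genes changed (4.9% of those tested), and the difference between the changes of the 2 extracts passed the test for 2322 genes (15.0%), with a higher change for Bupleuri Radix in 1317 and a lower one in 1005. With upper-quartile factors these were 950 and 1322. Both extracts were compared over a 25-fold dose step, but their doses in µg/mL differ, so the difference is between extract and dose together. The same Low and High libraries of Bupleuri Radix enter this test and the comparison above.

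Some NRF2 targets rose with both extracts. AKR1C2 rose by 1.4 (adjusted p = 1.8e-11) and HMOX1 by 0.86 (adjusted p = 1.1e-06) with aconite, and the Bupleuri change was larger by 0.41 ± 0.1 (adjusted p = 0.0066) and 0.67 ± 0.13 (adjusted p = 0.00079) on the log2 scale. The aconite change of SQSTM1 was 0.2 (adjusted p = 0.003), and the difference was 1.33 ± 0.06 (adjusted p = 1.3e-12). For DUSP5, GDF15 and NOX1 the aconite changes were 0.06, -0.13 and 0.05 and did not pass, with differences of 1.77 ± 0.16 (adjusted p = 1e-07), 1.54 ± 0.11 (adjusted p = 2.2e-09) and -1.73 ± 0.1 (adjusted p = 1e-10). For CHAC1 the difference was 1.7 (adjusted p = 1e-06) and for SLC7A11 1.08 (adjusted p = 4.9e-09). By list, the difference was positive and past the threshold for 12 of 19 ATF4 and CHOP genes, 15 of 22 endoplasmic reticulum genes and 11 of 17 heat shock genes, and negative for 7 of 25 interferon-stimulated genes. Tubulins were the reverse case. With aconite 9 of 12 rose, TUBA1B by 0.42 (adjusted p = 2.3e-07), while with Bupleuri Radix 1 rose, TUBA1C (0.24, adjusted p = 0.0017), which did not pass with all 60 libraries. The difference was negative and past the threshold for 6. The count of tubulins rising with Bupleuri Radix depended on the fit: it was 3 with RLE factors, by DESeq2 and with the 9 Bupleuri libraries alone, 4 without Vehicle, and 5 with the replicate block or with 59 libraries. TUBA1B was at 1500, 1470 and 1520 CPM in Bupleuri Low and 1580, 1570 and 1660 CPM in High (adjusted p = 0.063).

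**Figure D4:**
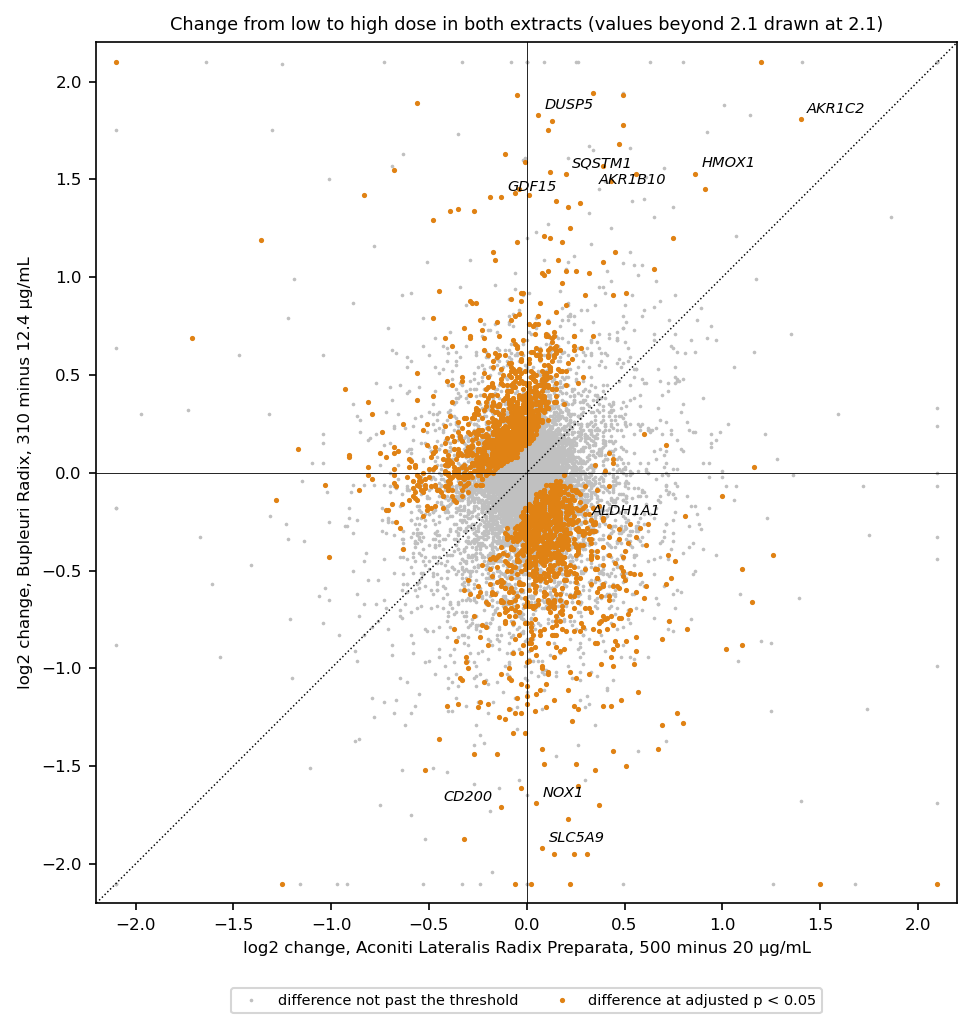
Log2 change per tested gene with aconite (x axis) and Bupleuri Radix (y axis), orange where the difference between extracts had an adjusted p below 0.05, which holds for 2322 genes. The dotted line marks equal changes, and 54 genes beyond 2.1 on either axis are drawn at that edge. DUSP5, SQSTM1, NOX1 and CD200 lie far from the line near an aconite change of 0, and AKR1C2 lies close to the line.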

How the data were processed

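Total RNA of HT29 cells was sequenced from directional libraries, per the labels. Per the submitters' processing notes, RSEM 1.3.3 and STAR 2.7.3a were run on hg38 (GRCh38), with FastQC 0.11.9 and Trim Galore 0.6.5 for the reads. The annotation and the strand setting are not given in the sources used here. Values deposited by the authors are RSEM expected counts for 60675 gene IDs in 270 columns, of which 210 columns are from samples not analysed here. Expected counts were rounded, which moved no library total by more than 0.00022%.

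The fit used 21 libraries in 7 groups: the 18 whose sample codes share their first number (Bupleuri Radix and Aconiti Lateralis Radix Preparata, 3 doses each) and 3 Vehicle. Genes needed 0.5 CPM in 3 libraries, leaving 15490. edgeR 4.0.16 (R 4.3.3) with TMM factors and the quasi-likelihood test gave log2 changes, standard errors and p-values, adjusted over all tested genes by Benjamini-Hochberg at 0.05. CPM values are TMM-scaled. Counts for High against Low were also simulated with the fit's own spread, with changes only in genes above a log2 CPM of 1. There the test recovered 94% of 1.5-fold, 98.5% of 2-fold and 97% of 4-fold changes. Smaller changes, and changes in weaker genes, were not simulated. Alternatives were DESeq2 1.42.0, other scalings, filters and choices of libraries, a replicate block, and leaving out each Bupleuri Radix library and, for the difference from aconite (chosen after seeing the data), each High and Low aconite library. Named genes are the 12 largest rises and falls past the threshold (mean log2 CPM 1 or more) plus up to 5 members per list. Members given by a log2 change alone, and those so described in the text, were chosen after their values were seen. The members and lists were chosen with earlier results of these data known. Some genes stand on more than 1 list and count in each. NQO1, for example, is on the thioredoxin and the aryl hydrocarbon receptor list, and SQSTM1 on the NRF2 regulator and the autophagy list. Some genes that this rule takes are not reported here.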

Additional observations from a re-analysis of the deposited data

Results flagged for a closer look

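The change from Low to High dose differed from that with Aconiti Lateralis Radix Preparata (aconite) for 2322 genes by edgeR's test of the difference itself, and for 101 of these both extracts passed the threshold in opposite directions. Named genes among those 101 were UVRAG, an autophagy protein, with a difference of 0.59 on the log2 scale, the cysteinyl-tRNA synthetase CARS1 with 0.3, the EGF receptor ligand EREG with 0.58 and the transcription factor KLF6 with 0.61, all higher at High dose of Bupleuri Radix and lower at High dose of aconite. ALDH1A1, a retinal dehydrogenase, had a difference of -0.55, with a fall for Bupleuri Radix and a rise for aconite. The doses of the extracts differ.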

How the results depend on the processing

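From Low to High 3217 genes passed, and 2421 to 2606 with 1 library left out. From Medium to High the count was 2508, and 1859 to 2019 with 1 library left out, and for the difference from aconite 2322, and 1854 to 2021 without a Bupleuri Radix library or 1824 to 2128 without an aconite library (chosen after seeing the data). With all 60 libraries these counts were 2071, 1555 and 1365, and the biological coefficient of variation rose from 5.11 to 7.83%. Leaving out 1 of the 60, Zizyphi Fructus Medium replicate 3, gave 3631, 2895 and 2727. From Low to Medium 0 genes passed, with 11 by DESeq2, 80 with no filter on low counts, 2 with the 9 Bupleuri Radix libraries alone, 2 with the 18 without Vehicle, 2 with 59 libraries (without Zizyphi Fructus Medium replicate 3) and 0 to 2 with 1 library left out, the 2 being without Medium replicate 3. Of 209 named genes past the threshold, 169 stayed past it in every alternative that gave a value (DESeq2 gave no adjusted p for CCL20), 40 lost it in at least 1 (33 of them with all 60 libraries), and none changed direction. At these depths 3 counts equal 0.082 to 0.15 CPM, which limits genes such as CYP1A1.

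Deviations of same-numbered High and Low libraries from their group means had correlations of 0.015, 0.089 and 0.15. For differently numbered ones the correlations ran from -0.115 to 0.034. The main fit did not use the replicate numbers as pairs, and whether they mark pairs was not tested. A replicate block gave 4196 genes from Low to High, 6 from Low to Medium, 3428 from Medium to High and 3303 for the difference between extracts. That fit left out Vehicle. The same 18 libraries without the block gave 3901, 2, 3119 and 3024.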
